A study of Mus musculus with 12 samples.

Results

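The genes of the cytosolic ribosomal proteins were followed through 4 cell populations sorted from mouse glioblastomas (GBMs). Members were chosen by symbol: Rpl or Rps followed by a number and at most an a or x, Rplp0, Rplp1 and Rplp2, and Rpsa. The rule found 76 genes among the 18180 in the deposited table, 46 of the large subunit and 30 of the small subunit. All 76 lie in a table that the authors had filtered on low values. The fewest reads of any of them in any library were 213.3, for Rpl29, and the most were 21755, for Rpsa.

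Every cytosolic ribosome joins a small subunit, which reads the mRNA, to a large subunit, which forms the peptide bond, and each subunit carries 1 copy of most of its proteins. Cells therefore make these proteins in matched amounts, and their mRNAs share a run of pyrimidines at the very start, the 5′ terminal oligopyrimidine (TOP) tract, through which mTORC1 signalling controls their translation. Transcription of the same genes is linked to growth and to MYC, and several of the proteins bind MDM2 when ribosome assembly fails.

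The libraries come from 3 tumors, T3, T4 and T5, each sorted into PDGFRA+, PDGFRA-, GAL1+ and GAL1- cells, so there are 3 libraries in each population and 12 in all. The tumors were started by injecting a Cre lentivirus into the brains of mice of mixed background (129S4, Balb/cJ, C57Bl/6J, SJL and FVBN/J), which switched on human EGFR and removed tumor suppressor function, Cdkn2a included, and they were taken at end stage. All 4 populations share these alleles, and the labels give neither age nor sex; the study's text states that mice of both sexes, aged 12 to 16 weeks, were used throughout. Dissociated cells were stained for EGFR with an antibody to either PDGFRA or Galectin-1, so the PDGFRA and the GAL1 sorts are separate stainings of cells from the same tumor, and the study's text describes the cells as CD45-negative. Reads recovered from the deposited values ran from 9851175 to 24117541 per library. Levels are log2 CPM (read counts scaled to a common library size) as deposited, and differences are log2 differences from limma with the tumor as a block. A gene was called when its p, adjusted by Benjamini-Hochberg across the whole table, was under 0.05.

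The summed level of the 76 genes was 14410, 17061 and 18825 CPM in the PDGFRA+ libraries of T3, T4 and T5. In PDGFRA- cells it was 19809, 14065 and 22551 CPM, in the same order of tumors. GAL1+ cells held 21199, 21554 and 24607 CPM. GAL1- cells held 15446, 13065 and 14031 CPM. The lowest GAL1+ library was above the highest GAL1- library, and the PDGFRA- libraries spread more widely than those of any other population. Group means were 22453 ± 1874 CPM (SD, n = 3) in GAL1+ and 14181 ± 1197 in GAL1- cells, with PDGFRA- (18808 ± 4331) and PDGFRA+ (16765 ± 2222) between them. In bulk libraries, fewer cells of a type and less RNA per cell cannot be told apart.

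Before the authors' scaling by TMM the GAL1+ and GAL1- groups lay closer together. Of the recovered reads, the 76 genes took from 1.97% to 2.07% in GAL1+ libraries and from 1.44% to 1.78% in GAL1- libraries. They took from 1.61% to 1.84% in PDGFRA+ and from 1.35% to 2.02% in PDGFRA- libraries. GAL1+ libraries stayed above GAL1- libraries on this scale too. The effective library sizes that TMM implies were 0.841 to 0.974 times the recovered reads in GAL1+ libraries and 1.09 to 1.16 times in GAL1- libraries.

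The large and the small subunit moved together. Large-subunit genes summed to 14202 ± 1119 CPM in GAL1+ and 9024 ± 773 in GAL1- cells, and to 10600 ± 1341 in PDGFRA+ and 11905 ± 2643 in PDGFRA- cells (SD, n = 3 each). Small-subunit genes summed to 8251 ± 759, 5157 ± 426, 6165 ± 881 and 6903 ± 1690 CPM in the same order of populations. The ratio of the large to the small sum stayed between 1.68 and 1.77 in all 12 libraries. Its group means were 1.72 ± 0.03 in GAL1+, 1.75 ± 0.02 in GAL1-, 1.72 ± 0.03 in PDGFRA+ and 1.73 ± 0.05 in PDGFRA- cells. Within each tumor the ratio was lower in GAL1+ than in GAL1- cells, at 1.758 against 1.762, 1.710 against 1.756 and 1.700 against 1.731 in T3, T4 and T5, and it was not tested.

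**Figure D1:**
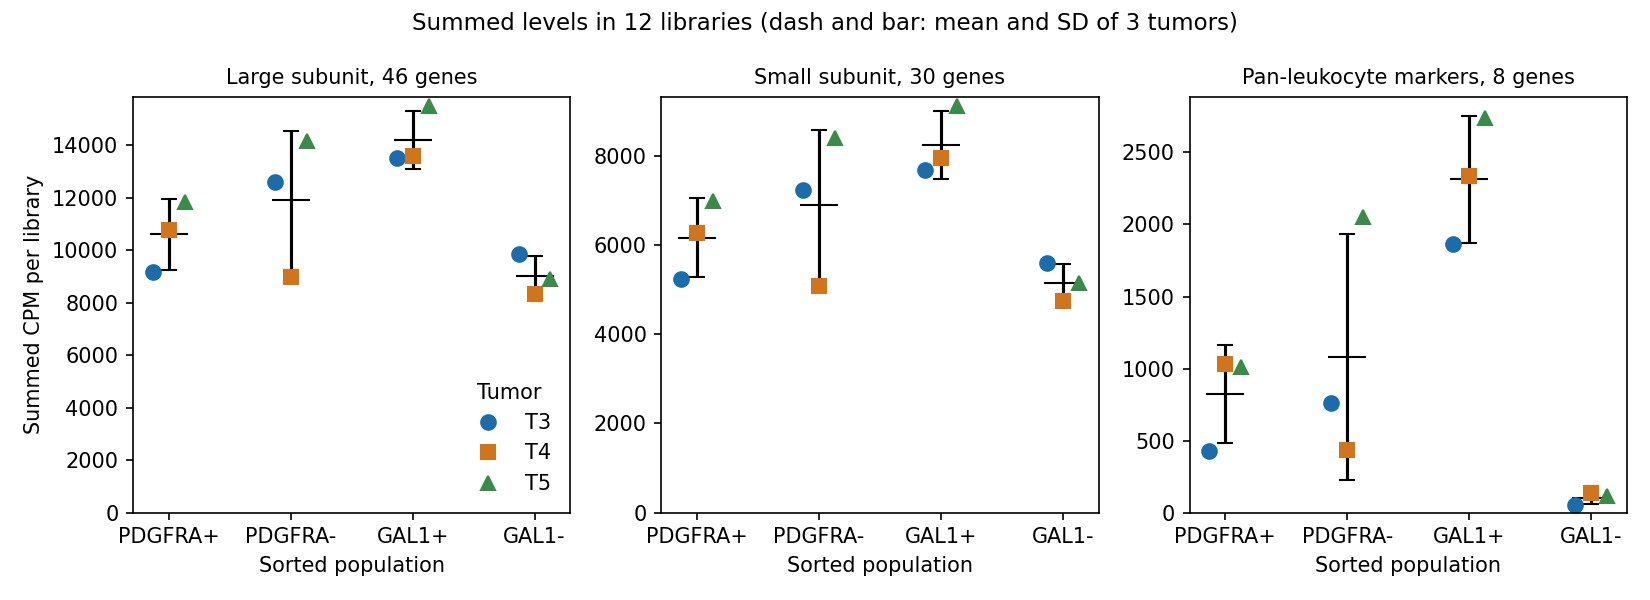
Summed CPM per library of the 46 large-subunit genes, the 30 small-subunit genes and 8 pan-leukocyte marker genes in each sorted population. Symbols are tumors, and the dash and bar are the mean and SD of 3 tumors. The 3 GAL1+ libraries lie above the 3 GAL1- libraries in each panel.

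Single genes varied less than the median gene of the table, which lay at a lower level, and no set matched in level is given. Over the 12 libraries the median SD of log2 CPM was 0.33 for the 76 genes and 0.48 for all 18180 genes, at a median level of 7.59 against 3.74. The smallest SD was that of Rpl18, 0.17, and the largest that of Rps29, 0.58. Per kilobase of mRNA, the highest levels were those of Rplp2 at 1155 CPM and Rplp1 at 1103 CPM, against a median of 262 for the 76 genes. Rplp1 and Rplp2 encode the acidic stalk proteins, which unlike most others are present in more than 1 copy per ribosome. The lowest were Rps20 at 48.7 and Rpl29 at 50.0 CPM per kilobase, where the annotated Rps20 transcript used for the length has 3706 bases.

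Most of the variation between libraries was shared by the whole family. Set against each gene's own mean over the 12 libraries, the median deviation was 0.26, 0.30 and 0.50 log2 in the GAL1+ libraries of T3, T4 and T5, with 74, 75 and 76 of the 76 genes above their mean. In GAL1- libraries it was -0.20, -0.44 and -0.32, with 5, 0 and 1 genes above their mean. PDGFRA+ libraries had medians of -0.30, -0.05 and 0.09. PDGFRA- libraries had medians of 0.16, -0.35 and 0.36, so that T4 stood apart from T3 and T5 by more than the PDGFRA+ and PDGFRA- groups differed. On the TMM-scaled values every one of the 76 genes had its highest group mean in GAL1+ and its lowest in GAL1- cells. Of them, 74 followed the order GAL1+, PDGFRA-, PDGFRA+, GAL1-. The exceptions were Rpl29 and Rps18, whose neighbouring PDGFRA groups differed by less than their spread. This ranking depended on the scaling. With TMM undone, the PDGFRA+ mean exceeded the GAL1+ mean for 5 genes, and for 7 the GAL1- mean exceeded the PDGFRA- mean. The PDGFRA- mean stayed above the PDGFRA+ mean, which the order requires, for only 49. Quantile normalization put the PDGFRA- mean above the GAL1+ mean for 9 genes.

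**Figure D2:**
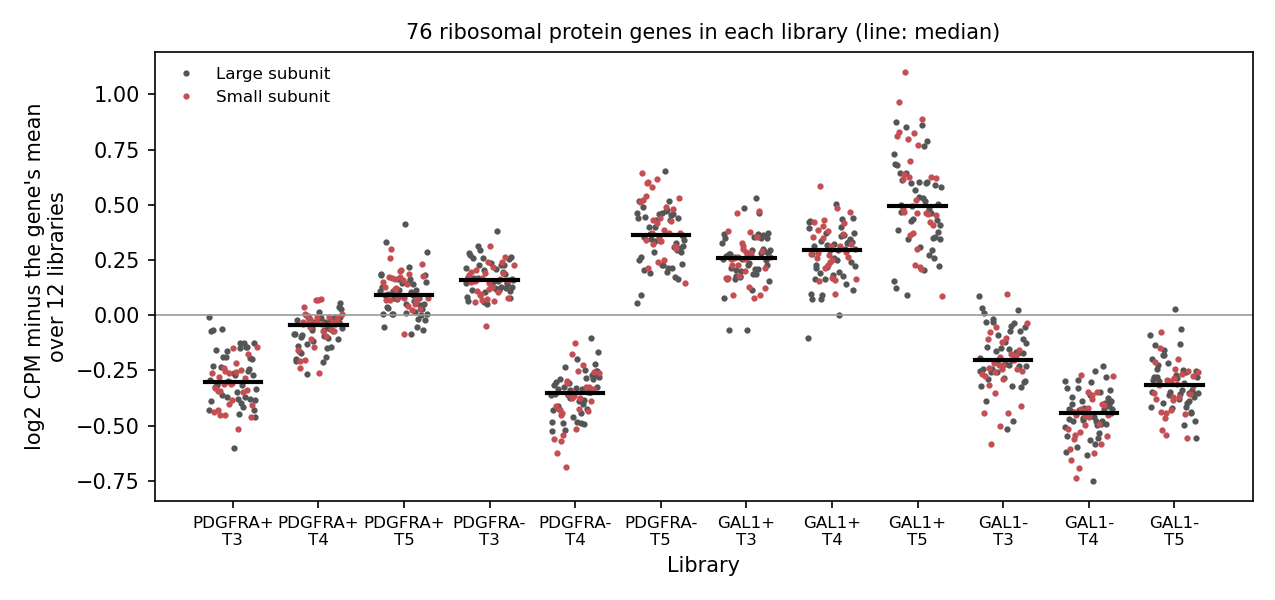
Each point is 1 of 76 ribosomal protein genes in 1 library, as log2 CPM minus that gene's mean over the 12 libraries, and the line is the median. All 76 points lie above 0 in GAL1+ T5 and PDGFRA- T5, and none in GAL1- T4, PDGFRA- T4 and PDGFRA+ T3.

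The comparison of GAL1+ with GAL1- cells asks what the Galectin-1 sort separates within a tumor. All 76 differences were positive, with a median of 0.67, against -0.03 for all genes. Called higher in GAL1+ cells were 71 of the 76 genes, where 28.9% of all genes were called higher, and 0 were called lower with limma (0 of the 74 at an unadjusted p under 0.05 were negative), where 29.3% of all genes were. By subunit, 42 of 46 large and 29 of 30 small genes were called, with medians of 0.66 and 0.70. The family medians of T3, T4 and T5 were 0.45, 0.73 and 0.85, with 76 positive genes in each tumor. Without T5, 35 genes were called (22.2% of all genes were higher), and without T3 and T4 the numbers were 65 (22.8%) and 59 (23.3%). Undoing TMM moved the median of all genes to -0.33 and that of the family to 0.37, with 35 genes called (20.7% of all genes) and Rpl29, Rpl13 and Rpl18 turning negative. Relative to all genes the family median was 0.70, a value that undoing TMM cannot change because it shifts all genes of a library alike. Under quantile normalization the relative median was 0.49 (0.39 before the all-gene median was taken off), 37 genes were called (25.5% of all genes) and Rpsa and Rpl13 were negative.

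Rps29, a zinc-binding protein of the small subunit's head, had the largest difference. Its log2 CPM was 7.07, 7.40 and 7.92 in the GAL1+ libraries of T3, T4 and T5 and 6.23, 6.08 and 6.30 in the GAL1- libraries. The populations did not overlap, and the difference, positive in each tumor, was 1.26 (adjusted p = 0.000858, standard error 0.22). Rpl10, which is among the last proteins to join the large subunit, had 8.09, 8.33 and 8.68 in GAL1+ and 7.31, 7.07 and 7.44 in GAL1- libraries. It differed by 1.09 (standard error 0.16, adjusted p = 0.000404), again without overlap. Rps12 and Rps25 each differed by 1.03, and both were called.

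At the other end, 5 genes were not called, Rpl29, Rpl13 and Rpl18 among them. Rpl29 had 5.18, 4.75 and 5.01 log2 CPM in GAL1+ and 4.94, 4.55 and 4.77 in GAL1- libraries of T3, T4 and T5. It was higher in 3 of 3 tumors, yet the populations overlapped, and the difference was 0.23 (standard error 0.12, adjusted p = 0.130). Rpl13 differed by 0.26 and Rpl18 by 0.27. Rpsa, which also serves as a laminin receptor, was at 9.91, 9.81 and 9.73 in GAL1+ and at 9.61, 9.37 and 9.38 in GAL1- libraries. Its difference of 0.36 (adjusted p = 0.0472) was called narrowly and turned to -0.15 under quantile normalization.

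Some members have known roles beyond the ribosome or special positions in it. The stalk genes Rplp0, Rplp1 and Rplp2 differed by 0.67, 0.80 and 0.78. Rps6, whose protein is phosphorylated downstream of mTORC1, differed by 0.78 (adjusted p = 0.00395). Rpl5 and Rpl11, whose proteins bind MDM2 together with 5S rRNA, differed by 0.59 and 0.51. Rps19, the gene most often mutated in Diamond-Blackfan anemia, differed by 0.64. Rps27a, which encodes a fusion with ubiquitin, differed by 0.87. Rpl3, beside the peptidyl transferase centre, differed by 0.67, Rpl22 by 0.51, Rpl39, which lines the exit tunnel, by 0.85, and Rpl41, the smallest of the proteins, by 0.51. All of these were called, and Rpl5, Rpl11, Rps19, Rpl22 and Rpl41 no longer were once TMM was undone.

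**Figure D3:**
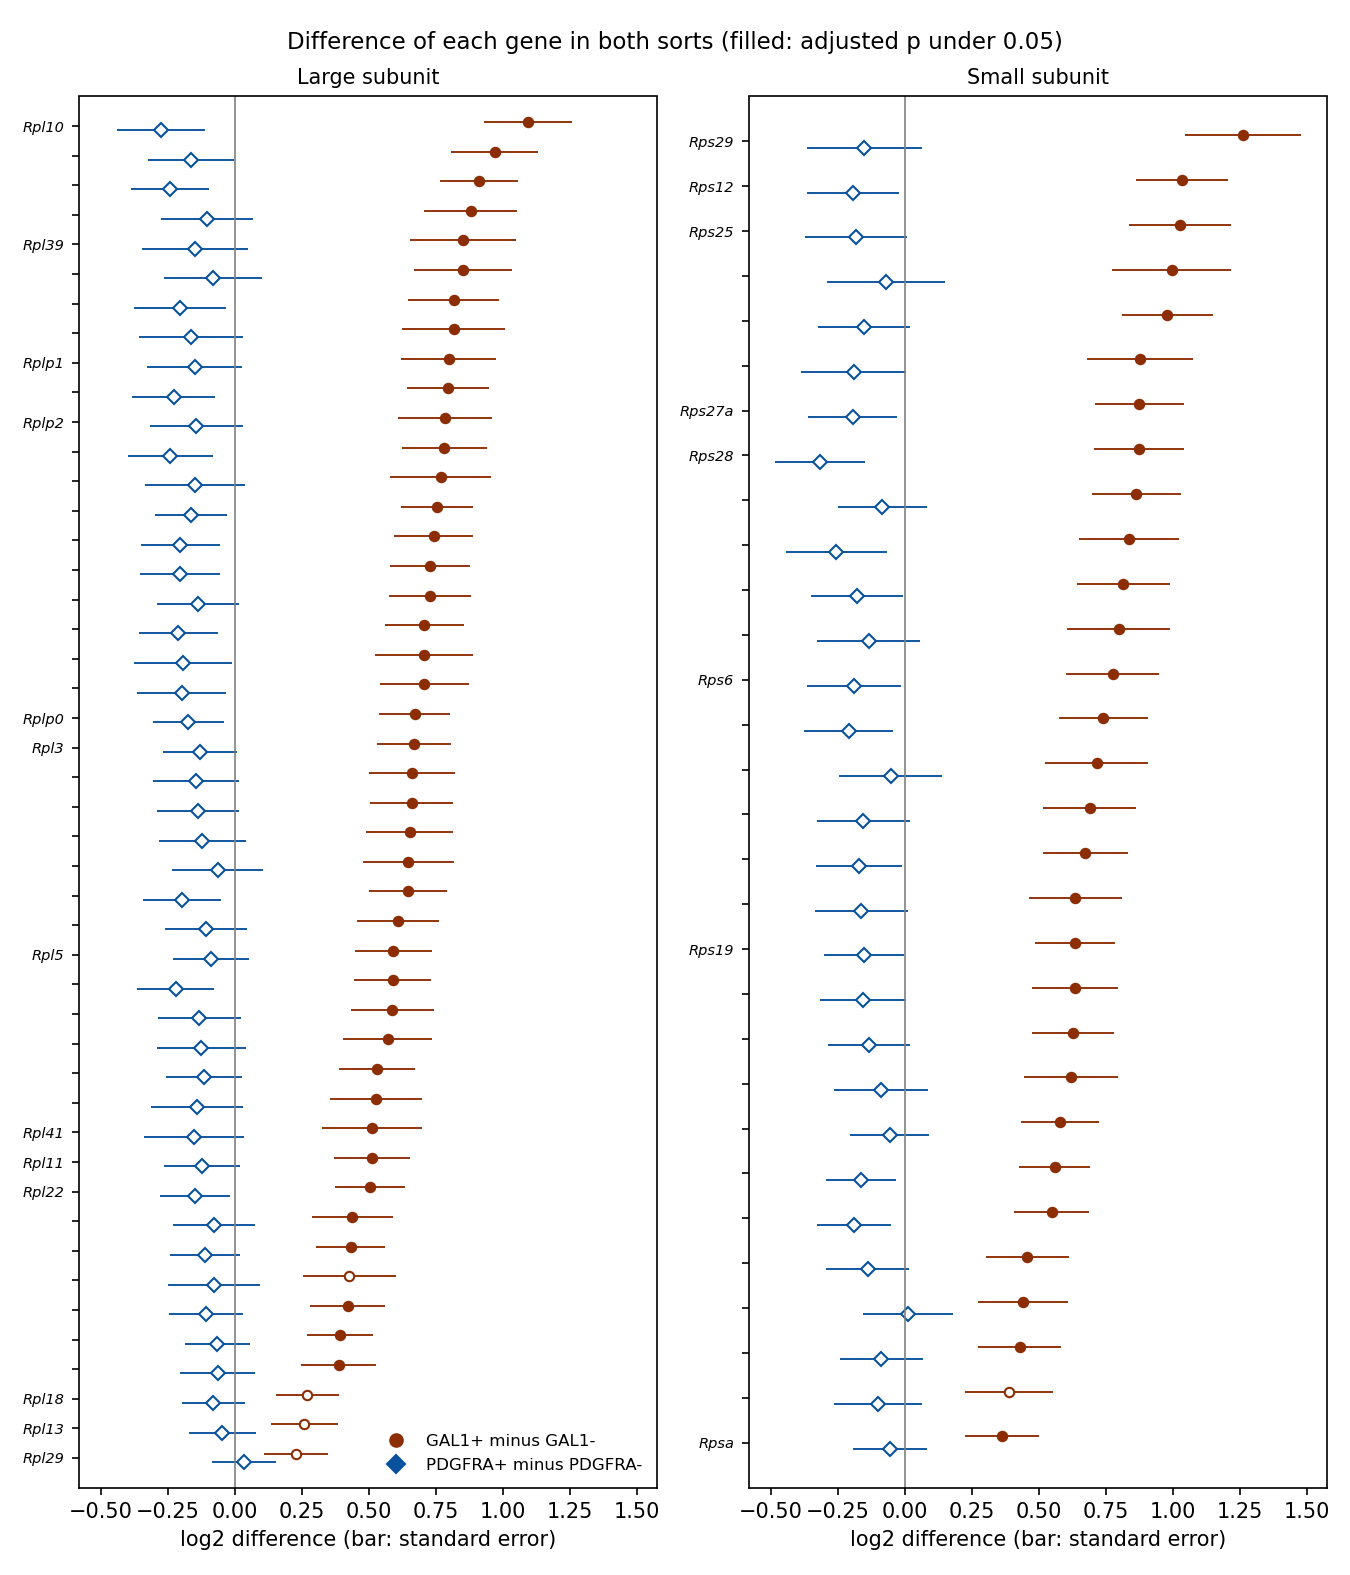
Log2 difference of each ribosomal protein gene in the GAL1 sort (circles) and the PDGFRA sort (diamonds), by subunit, with its standard error, sorted by the GAL1 sort difference. Labels name the genes given by value in the text. Filled symbols are called at an adjusted p under 0.05. All 76 circles lie above 0, and 71 are filled; 74 diamonds lie below 0 and 0 are filled. With TMM undone, 3 circles fall below 0 and 49 diamonds stay below it.

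The comparison of PDGFRA+ with PDGFRA- cells asks the same of the PDGFRA sort. Here limma called 0 of the 76 genes higher and 0 lower, with 0 at an unadjusted p under 0.05. Over all genes 0.0% were called higher and 0.0% lower, with 2137 at an unadjusted p under 0.05. Pdgfra itself was higher in PDGFRA+ cells in each tumor, by 0.70, 1.51 and 2.59 in T3, T4 and T5, but its difference of 1.60 was not called (adjusted p = 0.249) and its levels overlapped between tumors. The family median was -0.15, against -0.02 for all genes, and 74 genes were negative. With TMM undone the all-gene median was 0.11, the family median was -0.02 and 49 members were negative. Relative to all genes the family median was -0.13. Tumors disagreed in direction: the family medians of T3, T4 and T5 were -0.47, 0.29 and -0.26, with 0, 76 and 3 positive genes. Without T3 the family median turned to 0.02. The lowest difference was that of Rps28, at -0.32 (standard error 0.17, adjusted p = 0.493). Rps28 had 5.81, 6.04 and 6.37 log2 CPM in PDGFRA+ and 6.44, 5.84 and 6.89 in PDGFRA- libraries of T3, T4 and T5, so that T4 went against the other tumors.

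The sorts differed from each other. The GAL1 sort's difference minus the PDGFRA sort's had a family median of 0.83, against 0.02 for all genes. Tested as a contrast of its own, it was called higher for 64 genes (38 large and 26 small), where 26.2% of all genes were called higher. It was called lower for 0 with limma, where 24.9% of all genes were, and 69 genes had an unadjusted p under 0.05. The count was 23 without T3, 64 without T4 and 7 without T5, where 17.6%, 22.1% and 16.8% of all genes were called higher, so that without T5 the family's share was below that of all genes. Undoing TMM shifted the all-gene median to -0.41, and with that shift Rpsa, Rpl29, Rpl13 and Rpl18 were negative and 13 genes were called, where 17.3% of all genes were. Relative to all genes the family median was 0.81. Under quantile normalization the family median was 0.48 and 22 genes were called, where 23.0% of all genes were.

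Set directly against each other, PDGFRA+ cells were below GAL1+ cells for all 76 genes, and with TMM undone for 71. The family median was -0.43, -0.44 relative to all genes. Called lower were 33 genes, where 17.0% of all genes were, and 0 were called higher with limma, where 20.9% of all genes were; 55 members had an unadjusted p under 0.05. Of the 33, 23 belong to the large and 10 to the small subunit. With TMM undone 4 members were called lower, where 9.68% of all genes were. Quantile normalization gave 6 called lower, where 18.6% of all genes were, and a family median of -0.20. Within T3, T4 and T5 the family medians were -0.55, -0.35 and -0.39. The number called was 0 without T3, 18 without T4 and 1 without T5, where 1.63%, 11.6% and 9.39% of all genes were lower. Rps25 fell by 0.76 (standard error 0.19, adjusted p = 0.0140): it had 5.94, 6.03 and 6.33 log2 CPM in PDGFRA+ and 6.65, 6.69 and 7.23 in GAL1+ libraries, with no overlap. Nearest 0 were Rpl29 at -0.12, Rpl18 at -0.14 and Rpl13 at -0.15.

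The other pairs cross the stainings and share libraries with the comparisons above. PDGFRA- cells had a family median of -0.30 against GAL1+ cells, negative for 76 genes (75 with TMM undone). Under quantile normalization it was -0.13, and 67 genes were negative. Limma called 0 members there in either direction, with 16 at an unadjusted p under 0.05, where 13.2% of all genes were called higher and 6.91% lower. The medians by tumor were -0.08, -0.64 and -0.14 in T3, T4 and T5. When PDGFRA- T5 was left out, 10 members were called lower, where 13.4% of all genes were. PDGFRA+ cells had a family median of 0.24 against GAL1- cells, positive for 76 genes (75 with TMM undone and 72 when centred on library medians). By tumor the medians were -0.10, 0.38 and 0.41 in T3, T4 and T5, so that T3 went the other way. Limma called 0 of them, with 4 at an unadjusted p under 0.05, where 8.26% of all genes were called higher and 0.011% lower. PDGFRA- cells had a median of 0.39 against GAL1- cells, positive for 76 genes (0.17 and 69 genes with TMM undone), with 9 members called higher, where 16.2% of all genes were. With limma 0 were called lower, where 6.88% were, and 45 had an unadjusted p under 0.05. Rpl10, Rplp0, Rps12 and Rps28 were among the 9, named after their values were seen. Without T3, and without T5, limma called 0 members, where 6.66% and 4.96% of all genes were higher, and without T4 there were 12, where 13.5% were.

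Further genes whose products sit in the ribosome, Fau, Rack1 and Rps3a1 among them, have other names and fell outside the rule. In the GAL1 sort Fau, a fusion whose ribosomal part is RPS30, differed by 1.35 (adjusted p = 0.000322), Rack1 by 0.75 and Rps3a1 by 0.59. All 3 were called higher in GAL1+ cells (28.9% of all genes were) and lower when PDGFRA+ was set against GAL1+ (17.0%). Fau stood at 8.42, 8.70 and 8.86 log2 CPM in GAL1+ and at 7.35, 7.20 and 7.38 in GAL1- libraries, a larger gap than that of any of the 76. Of 8 listed paralogs 5 were in the table and 2 were called higher, where 28.9% of all genes were: Rpl36al at 0.73 and Rps4l at 3.96. Rps4l rested on few reads, 12.2, 25.7 and 9.50 in the GAL1- libraries against 347.1, 91.9 and 63.0 in the GAL1+ libraries. Rpl22l1 (0.52), Rps27l (0.13) and Rpl7l1 (-0.14) were not called.

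Ribosomal protein genes have many processed pseudogenes of near-identical sequence, and the authors shared multi-mapping reads as fractions. The table holds 163 pseudogene entries named after 53 of the members. Their reads came to between 18.6% and 19.6% of the members' reads in all 12 libraries, so the share did not follow the sort. The 53 genes with such an entry had a median GAL1 sort difference of 0.65 and the 23 without one 0.76. Of the 163 entries themselves, 118 were called higher in GAL1+ cells, where 28.9% of all genes were, with a median of 0.67. Since reads were shared among copies, an entry and its parent gene are not separate measurements.

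Lists of genes that act with the ribosome were mixed in the GAL1 sort, and their difference from the family was not tested. Over all genes 28.9% were called higher and 29.3% lower there, and the counts below stand beside those shares. In detail, 4 of 10 elongation factors were called higher and 3 lower, with Eef1a1 at 0.72, Eef2 at 0.35 and the neuronal and muscle form Eef1a2 at -2.59. Among 39 initiation factors 14 were called higher and 3 lower. Among 12 other TOP mRNAs and snoRNA hosts 4 were higher and 0 lower, with 4 at an unadjusted p under 0.05. These included Pabpc1, the poly(A)-binding protein, at 1.33 and Tpt1 at 0.70, while Vim was at 0.06. Of 44 ribosome biogenesis factors 4 were higher and 12 lower, the lower ones near the share of all genes, and their median was -0.10. Of 12 listed assembly and import factors of ribosomal proteins 3 were lower, Tsr2 among them at -0.80, and 0 were higher. Of 20 aminoacyl-tRNA synthetases 2 were higher and 7 lower.

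Mitochondrial ribosomal proteins, which build a separate ribosome, gave 5 of 78 higher and 9 lower, both below the shares of all genes (28.9% and 29.3%), with a median of -0.02. Among 17 mTORC1 and MYC regulators 6 were higher and 5 lower, near those shares. Myc was at -1.08 (adjusted p = 5.37e-05) and Mycn at -1.82, both lower in GAL1+ cells, and the MYC antagonist Mxd1 was at 2.40. Of 10 genes, Trp53 and listed p53 targets, 3 were higher, with Cdkn1a at 1.70 and Mdm2 at 1.28, and 3 lower, with Phlda3 at -1.45. The 2 mitochondrial rRNAs were not called. In the PDGFRA sort limma called 0 genes in each of these lists.

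Markers of other cells moved with the family in the GAL1 sort. All 8 pan-leukocyte markers were called higher in GAL1+ cells, with a median of 4.70, and Laptm5 was the most abundant. Their summed level was 1862, 2339 and 2740 CPM in the GAL1+ libraries of T3, T4 and T5 and 53.2, 136.5 and 113.0 CPM in the GAL1- libraries. In PDGFRA+ libraries it was 430.4, 1033 and 1010 CPM and in PDGFRA- libraries 758.6, 437.8 and 2049 CPM. Within the PDGFRA sort, PDGFRA+ was thus below PDGFRA- in T3 and T5 and above it in T4, for these markers and for the ribosomal sum alike. Their part in the result was not tested.

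Lineage markers were as uneven. All 6 macrophage markers (Lyz2 most abundant) and all 5 endothelial markers (Flt1) were called higher in GAL1+ cells. So were 1 of 3 neutrophil markers (Mmp9) and 1 of 5 T and NK cell markers (Cd4). All 6 oligodendrocyte lineage markers (Cspg4) were called lower. The macrophage markers summed to 2110, 1848 and 2324 CPM in GAL1+, 21.0, 44.4 and 75.2 in GAL1-, 413.1, 692.8 and 872.9 in PDGFRA+ and 765.0, 417.5 and 2148 in PDGFRA- libraries of T3, T4 and T5. The oligodendrocyte lineage markers summed to 832.5, 856.5 and 364.5 CPM in GAL1+, 2338, 2198 and 2499 in GAL1-, 2225, 1679 and 1699 in PDGFRA+ and 2081, 2247 and 1220 in PDGFRA- libraries. These levels separate GAL1+ from GAL1- libraries without overlap for both lists, and their part in the result was not tested.

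Endothelial markers summed to 298.2, 333.0 and 294.9 CPM in GAL1+, 57.7, 77.3 and 37.2 in GAL1-, 214.6, 281.8 and 145.2 in PDGFRA+ and 208.1, 183.8 and 237.8 in PDGFRA- libraries. Neutrophil markers summed to 37.7, 60.8 and 44.1 CPM in GAL1+, 15.2, 21.9 and 35.7 in GAL1-, 20.0, 37.9 and 33.1 in PDGFRA+ and 38.02, 53.03 and 62.3 in PDGFRA- libraries. T and NK cell markers stayed between 5.38 and 30.5 CPM in all 12 libraries.

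The rule used names only, so what the genes share in sequence is a separate description. RefSeq promoter entries (build GRCm38.p6) matched 56 of the 76 genes, with 66 annotated starts. A C at the annotated start followed by at least 4 pyrimidines, the form of a TOP tract, stood at 13 of the 66 starts, in 23.2% of the 56 genes. It stood in 2.99% of 12166 other genes of the table. Allowing the tract to begin within 10 bases on either side, 60.7% of the 56 genes had one against 37.1%. A tract of at least 8 pyrimidines within that distance occurred in 41.1% against 10.6%. The 13 genes with a tract at the annotated start had a median GAL1 sort difference of 0.74 and the other 43 of 0.66, within the range of either set.

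The starts of 6 of the 13 genes are printed to show the tract where it stands at the annotated start. Each line gives 15 bases before the annotated start and 15 from it, with the TOP tract in capitals.
Rps6, chr4:86857353-86857382, minus strand: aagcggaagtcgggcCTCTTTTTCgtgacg
Rps10, chr17:27635230-27635259, minus strand: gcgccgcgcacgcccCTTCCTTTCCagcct
Rps18, chr17:33955651-33955680, minus strand: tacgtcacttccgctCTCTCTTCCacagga
Rpl15, chr14:18270972-18271001, minus strand: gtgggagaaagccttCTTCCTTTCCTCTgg
Rpl28, chr7:4792950-4792979, plus strand: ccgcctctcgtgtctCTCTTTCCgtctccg
Rpl35, chr2:39005117-39005146, minus strand: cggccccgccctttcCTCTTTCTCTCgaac

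The genes with the largest GAL1 sort differences among those matched do not have a tract at the annotated start. Their windows are in lower case throughout, although Rps12 has a tract of 11 pyrimidines beginning within 10 bases of its start.
Rpl10, chrX:74270801-74270830, plus strand: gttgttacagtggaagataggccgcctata
Rps12, chr10:23787195-23787224, minus strand: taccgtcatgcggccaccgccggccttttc
Rps25, chr9:44407699-44407728, plus strand: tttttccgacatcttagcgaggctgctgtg

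Across the 250 bases before and 50 after each start, on both strands, GGAAGT (or ACTTCC), the core of ETS and GABP sites, was in 51.8% of the 56 genes and 30.8% of the others. CTTTCC (or GGAAAG), which can overlap a TOP tract, was in 51.8% against 30.3%. TATAAA (or TTTATA) was in 10.7% against 9.64% and the E-box CACGTG, which MYC binds, in 10.7% against 11.1%. A match of letters is a description and no evidence of binding. Differences did not track mRNA length either: the 38 genes with shorter mRNAs, from 271 to 681 bases, had a median GAL1 sort difference of 0.72 and the 38 longer ones of 0.66.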

How the data were processed

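Bulk RNA-seq libraries were made by the authors from 1 ng of total RNA of 12 sorted samples. Per the submitters' processing notes and the study's methods, reads were processed with fastp, aligned with STAR to mm39 and counted on exons with featureCounts, multi-mapping reads as fractions; genes were filtered, scaled by TMM and passed through voom in limma. The authors deposited log2 CPM for 18180 genes. From these values reads were recovered by taking the lowest value of a library as 0 reads with an offset of 0.5; between 41.3% and 59.2% of values per library were then whole numbers within 0.01, and the cause of the share was not tested.

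limma 3.58.1 in R 4.3.3 was fitted to all 12 samples with population means and the tumor as a block (6 residual and 3.49 prior degrees of freedom, eBayes with a trend). Two-sided p-values were adjusted by Benjamini-Hochberg over all genes. The pairing was checked: after population means were removed, profiles of libraries from 1 tumor had a mean correlation across genes of 0.49 (18 pairs). Between tumors it was -0.24 (36 pairs). Deviations from a population mean cancel across its tumors, so the between-tumor value follows from the same-tumor value and is no separate contrast. Genes are not independent replicates. The script for the fit was tested on simulated data that held known changes. The share of large changes called there did not meet the first bar in every run, and that bar was then replaced by the share expected from each gene's own spread, which was met. Lengths are those of GENCODE M21 principal transcripts, the shortest where there were several. Tables were made with numpy 2.4.6 and pandas 2.3.3 and figures with matplotlib 3.10.9.

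Genes were named by rule: the 5 highest and 5 lowest differences in the GAL1 sort, the PDGFRA sort and PDGFRA+ against GAL1+, the extremes of level and SD, members with stated roles, and from each other list the 2 most abundant genes and the 2 with the largest difference either way. Members and lists were chosen with earlier results of these data known. Alternatives were no block, only the compared groups, no trend, a filter at a log2 CPM above 3 in 3 samples, TMM undone, centring on the library median, quantile normalization, an offset of 2 reads, pseudogene entries added to their parent genes, a fold above 1.5, leaving out each tumor, and leaving out the PDGFRA- library of T5, chosen after its marker levels were seen. Some genes and 1 marker list are left out of the text.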

Additional observations from a re-analysis of the deposited data

Results flagged for a closer look

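The difference between the GAL1+ and GAL1- populations was larger than the difference between the PDGFRA+ and PDGFRA- populations for all 76 ribosomal protein genes, and was called larger for 64. This drew attention because the difference itself was tested, as a contrast of the contrasts in limma over all genes, with a family median of 0.83 log2. Over all genes 26.2% were called in that direction. With TMM undone 4 members turned negative and 13 were called, where 17.3% of all genes were. Quantile normalization turned 2 negative and gave 22 called, where 23.0% of all genes were, with a family median of 0.48. The count was 23 without T3, 64 without T4 and 7 without T5, where 17.6%, 22.1% and 16.8% of all genes were called. The leukocyte markers, whose levels are given with the results, were called in the same contrast for 8 of 8 genes with a median of 4.93, and their part in the result was not tested.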

How the results depend on the processing

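The directions of the family medians held under the alternatives that were run, except for the PDGFRA sort, whose median lay between -0.37 and 0.02 when a tumor or the PDGFRA- library of T5 was left out (reversed to 0.020 without T3). The counts called depended more on the choices, and the cause was not tested; the share of all genes called in the same direction stands in brackets. With TMM undone, 35 genes (20.7%) were called in the GAL1 sort, 4 (9.68%) in PDGFRA+ against GAL1+, 1 (12.0%) in PDGFRA- against GAL1- and 13 (17.3%) in the difference of the sorts, with medians of 0.37 in the GAL1 sort, -0.23 in PDGFRA+ against GAL1+ and 0.40 in the difference of the sorts. Quantile normalization gave 37 (25.5%), 6 (18.6%), 2 (12.4%) and 22 (23.0%) called, with medians of 0.39, -0.20 and 0.48, and turned Rpsa to -0.15 in the GAL1 sort. Centring on library medians gave 63 (24.2%) called in PDGFRA+ against GAL1+ (median -0.59), 6 (12.0%) in PDGFRA- against GAL1+ and 1 (13.5%) in PDGFRA- against GAL1-. Without the tumor block, 0 were called in PDGFRA+ against GAL1+ (5.17%) and 0 in PDGFRA- against GAL1- (7.52%), 58 (23.4%) stayed called in the GAL1 sort and 46 (19.1%) in the difference of the sorts. Fitting only the compared groups gave 59 (19.8%) in PDGFRA+ against GAL1+, 3 (13.1%) in PDGFRA+ against GAL1- and 0 (6.63%) in PDGFRA- against GAL1-. Without a trend the counts were 18 (15.3%) in PDGFRA+ against GAL1+ and 1 (14.6%) in PDGFRA- against GAL1-, and with a fold above 1.5 they were 13 (13.1%) and 1 (14.2%). Leaving out a tumor or the PDGFRA- library of T5 gave 35 to 70 called in the GAL1 sort (22.2% to 29.6%), 0 to 42 in PDGFRA+ against GAL1+ (1.63% to 19.2%), 0 to 10 in PDGFRA- against GAL1+ (0.0% to 13.4%), 0 to 12 in PDGFRA- against GAL1- (4.96% to 13.5%) and 7 to 64 in the difference of the sorts (16.8% to 23.2%). With 3 tumors and pooled sorted cells, small differences of single genes were called only in part. In the GAL1 sort Eif3a was called at 0.26, while Ipo5 at -0.25 was not. What size of difference these libraries resolve was not tested.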
